A study of Mus musculus with 80 samples.

Results

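Cytochromes P450 of families 1 to 4 were taken as every row of the deposited table whose gene symbol begins with Cyp, a family number from 1 to 4, a subfamily letter and a gene number. The rule found 66 of the 14560 genes in the table, of which 3 belong to family 1, 39 to family 2, 9 to family 3 and 15 to family 4. All 66 passed the filter on low values. By the GENCODE annotation, 59 are protein-coding, 6 are pseudogenes and 1, Cyp2d13, had no match. The libraries were made from the livers of 8-week-old female C57BL/6J mice, wild type or Adamts12-/-, the latter lacking a secreted metalloproteinase gene. Each mouse received a single intraperitoneal injection, either of carbon tetrachloride (CCl4) at 0.3 ml per kg of body weight, diluted to 3% by volume in olive oil, or of olive oil alone, called vehicle here. Livers were collected 4 h, 12 h, 24 h or 7 days later. That gives 16 groups of 5 livers, each liver from its own numbered mouse, and 80 libraries of poly(A) RNA. The labels name no promoter or cell type that would limit the knockout.

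These enzymes are haem proteins of the endoplasmic reticulum that oxidize drugs, steroids, fatty acids and foreign chemicals with electrons passed on by cytochrome P450 reductase. The liver holds most of the body's P450, and many members are concentrated in the hepatocytes around the central vein. Their genes answer to a small set of receptors: AHR drives Cyp1a1 and Cyp1a2, CAR and PXR drive Cyp2b10 and Cyp3a11, and PPARα drives the Cyp4a genes. Several members differ between the sexes in mouse liver through the pattern of growth hormone release. Cyp2e1 is the enzyme that turns CCl4 into the radical that injures the cell.

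Most members sit in tandem arrays of related genes, some of them near copies (GRCm38, GENCODE coordinates). The 13 Cyp2c genes are on chromosome 19 and the 9 Cyp3a genes on chromosome 5. The 9 annotated Cyp2d genes lie on chromosome 15, the 4 Cyp2a and 3 Cyp2b genes on chromosome 7, and the 5 Cyp4a genes on chromosome 4. Cyp2e1 stands alone on chromosome 7, at chr7:140763739-140774987. Near copies limit what a read can tell. Of the 65 members with a transcript in the annotation, 5 shared over 50% of their 50-base windows with another gene, namely Cyp3a41a (98.6%), Cyp3a41b (93.5%), Cyp2c40 (72.1%), Cyp2c69 (54.8%) and Cyp2c67 (52.8%). In all, 32 shared over 10%, among them Cyp2a4 (38%) and Cyp2a5 (40.8%), and 13 shared none. How reads with several matches were counted is not given in the sources used here, so values of these pairs are uncertain as to which copy they belong to.

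Promoters are shown for the members at the opposite ends of the response, 3 that rose after CCl4 and 3 female-specific Cyp3a genes that fell at 12 h in wild type. Each run is the 150 bases before the RefSeq start of the gene in GRCm38.p6, 5′ to 3′ on the gene's own strand. The first 3 are on the plus strand, at chr7:26307042-26307191, chr7:26835189-26835338 and chr7:25897508-25897657, and capitals mark TTGCATAA, a motif of the C/EBP and PAR bZIP type.
Cyp2a4: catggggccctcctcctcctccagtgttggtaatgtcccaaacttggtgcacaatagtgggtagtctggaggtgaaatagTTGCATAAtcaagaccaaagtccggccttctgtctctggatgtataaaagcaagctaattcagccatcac
Cyp2a5: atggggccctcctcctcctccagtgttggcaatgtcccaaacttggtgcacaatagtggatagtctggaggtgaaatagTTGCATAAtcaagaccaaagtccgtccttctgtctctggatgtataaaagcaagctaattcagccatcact
Cyp2b10: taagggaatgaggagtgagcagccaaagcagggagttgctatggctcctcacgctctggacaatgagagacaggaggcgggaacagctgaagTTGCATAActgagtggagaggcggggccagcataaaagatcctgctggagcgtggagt
The Cyp3a promoters are on the minus strand, at chr5:145469724-145469873, chr5:145720137-145720286 and chr5:145584731-145584880, and capitals mark CAAAGTCCA, a motif of the HNF4 type.
Cyp3a16: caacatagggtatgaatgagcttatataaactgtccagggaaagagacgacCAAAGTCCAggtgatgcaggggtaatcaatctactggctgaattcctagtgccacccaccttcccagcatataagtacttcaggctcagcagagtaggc
Cyp3a41a: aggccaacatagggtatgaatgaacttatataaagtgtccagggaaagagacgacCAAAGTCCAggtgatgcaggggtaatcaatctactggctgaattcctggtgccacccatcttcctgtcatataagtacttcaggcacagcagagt
Cyp3a41b: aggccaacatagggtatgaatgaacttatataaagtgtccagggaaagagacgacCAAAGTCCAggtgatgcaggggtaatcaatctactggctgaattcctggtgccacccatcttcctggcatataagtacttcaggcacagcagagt
The promoters of Cyp2a4 and Cyp2a5 differed at 4 of 249 aligned bases, and those of Cyp3a41a and Cyp3a41b at 1 of 250. RefSeq entries were matched for 49 of the 66 members. Over the 250 bases before the start, with both strands searched, CAAAGTCCA was found in 9 of these 49 promoters (18.4%) and in 0.38% of all 32851 promoters. The 9 were Cyp2c40, Cyp2c67, Cyp2c68, Cyp2c69, Cyp2c70, Cyp3a11, Cyp3a16, Cyp3a41a and Cyp3a41b. All are from the Cyp2c and Cyp3a arrays, which hold near copies, so they are not all independent matches. In their transcripts, Cyp2c70 and Cyp3a11 shared no 50-base window with another gene. TTGCATAA was found in 4 members (8.2%), namely Cyp2a4, Cyp2a5, Cyp2b10 and Cyp4f14, and in 0.69% of all promoters. Cyp2a4 and Cyp2a5 are near copies, and the 3 promoters shown with it were chosen from members that rose. In both genotypes, 2 of the 4 were higher and 1 lower at 12 h. At 24 h, 3 were higher and Cyp4f14 was lower. Because 3 of the 4 were shown for having risen, these counts say nothing of the motif. Of the 45 members without it, 32 were lower and 2 higher in wild type at 12 h and again at 24 h. In knockout, 27 were lower and 2 higher at 12 h, and 29 and 3 at 24 h. Over all genes, 23% to 29.4% were lower and 21.1% to 29% higher in these 4 comparisons. No link between this motif and the response was tested. The core TNGCGTG of the AHR-ARNT site was in 1 member, Cyp2c68, and in 4.1% of all promoters. A match of letters is a description and no evidence of binding, and a missing match says nothing of the factor.

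Some libraries went against their labels. The libraries labelled knockout CCl4 12 h replicate 5 and knockout vehicle 12 h replicate 1 stood with the other treatment over all genes and were left out, so both knockout 12 h groups have 4 libraries. With all 80 libraries, 22 members were called in knockout at 12 h in place of 42. In the first, Cyp2a5 was at 1836.9 normalized counts and Cyp2b10 at 174.6, while the knockout vehicle livers kept at 12 h ranged from 1885.8 to 9611.9 and from 35.0 to 440.9. Of the libraries kept, wild-type vehicle 12 h replicate 1, knockout vehicle 12 h replicate 3 and knockout CCl4 12 h replicate 1 were also closer to groups of another time. The library labelled knockout vehicle 4 h replicate 1 had an Xist level of 90.23, against 3273.95 to 27988.68 in the other 79. It held 9 members outside the range of all other libraries: Cyp2c23, Cyp2d9, Cyp3a11, Cyp4a12a and Cyp4v3 above it, and Cyp2a22, Cyp2b9, Cyp2b13 and Cyp4f16 below it. There Cyp2d9, a male-biased steroid hydroxylase, was at 45793.3 (at most 8553.6 elsewhere), and Cyp4a12a, a male-biased fatty acid hydroxylase, at 10204.1 (at most 231.1 elsewhere). It was kept as labelled, and the knockout calls named at 4 h that were lost without it, those of Cyp2b10, Cyp1b1, Cyp2u1 and Cyp4f13, are given without it. Adamts12 itself was low, at 5.89 to 75.57 normalized counts (median 18.79) in wild type and 0.95 to 25.42 (median 6.72) in knockout, so the ranges overlapped. Library totals ran from 18.65 to 64.49 M reads. The summed level of the 4 measured hepatocyte markers was 3738993.2 to 5155138.7 in wild-type vehicle livers at 12 h and 1368682.4 to 2831692.3 after CCl4. In knockout livers it was 3801949.4 to 4690856.5 and 1694890.6 to 3084889. At 24 h the wild-type ranges overlapped, at 2604865.2 to 3402318.3 in vehicle and 1722778.2 to 2748900.6 after CCl4. The knockout ranges at 24 h were 2875661.7 to 3939605 and 1633682.1 to 2903556 and overlapped too. None of these markers was at 0. In bulk liver RNA, fewer hepatocytes and less RNA per hepatocyte cannot be told apart, and the part of this marker change in the results below was not tested.

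On average, P450 RNA took a smaller part of the library at 4 h, 12 h and 24 h after CCl4 and was near the vehicle level by 7 days. These shares were not tested. The 66 genes held 2.2% ± 0.3 (SD, n = 5) of all normalized counts in wild-type vehicle livers at 4 h and 1.66% ± 0.17 after CCl4. The ranges there overlapped, at 1.74 to 2.52 and 1.38 to 1.8. At 12 h the wild-type share was 1.7% ± 0.36 (1.42 to 2.32) against 1% ± 0.28 (0.84 to 1.49), again with overlap. At 24 h the share was 2.02% ± 0.13 (1.85 to 2.17) against 0.86% ± 0.08 (0.76 to 0.97), and the groups did not overlap. At 7 days it was 2.27% ± 0.2 against 1.96% ± 0.32. In knockout livers at 24 h it was 1.94% ± 0.25 against 1.04% ± 0.25 (n = 5 each). Cyp2e1 alone made up 29.2% of the members' counts in wild-type vehicle livers and Cyp3a11 another 8.8%. Per kilobase of exon, mean levels in those 20 livers were 98577 for Cyp2e1, 16698 for Cyp2d26 and 12589 for Cyp3a11. Next came Cyp2f2 (11185), Cyp2c69 (11060) and Cyp4a14 (10233).

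**Figure D1:**
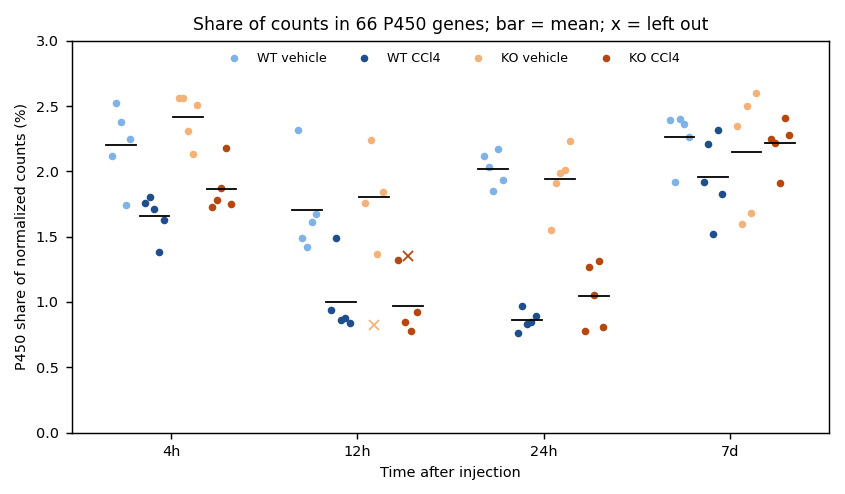
Share of all normalized counts held by the 66 genes (vertical axis, percent) by time after injection; each point is 1 liver, bars are group means, and crosses are the 2 libraries left out. At 24 h every CCl4 liver lies below every vehicle liver of its genotype.

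Changes below are log2 differences of normalized count + 1 with their standard errors, tested with limma over 14558 genes, and a gene is called higher or lower where its adjusted p is under 0.05. Few members were called at 4 h and most were called lower at 12 h and 24 h. In wild-type livers, 12 of 66 were lower and 3 higher at 4 h, where 20.5% of all genes tested were called lower and 23.1% higher. At 12 h, 44 were lower and 4 higher, against 29.4% lower and 29% higher over all genes. At 24 h, 46 were lower and 5 higher, against 25% and 26.2%. The members' median change was -0.31 at 4 h, -1.21 at 12 h and -1.2 at 24 h, while the median over all genes was -0.03, -0.05 and 0.04. In knockout livers, 11 were lower and 4 higher at 4 h (all genes: 17.7% and 21.1%), 38 and 4 at 12 h (23.1% and 23.6%), and 40 and 6 at 24 h (23% and 21.1%), with medians of -0.19, -1.1 and -1.13 (all genes: 0, -0.03 and 0.02). Of the members called lower in wild type, 40 were so at both 12 h and 24 h, and 9 at all of 4 h, 12 h and 24 h. No share of all genes was taken for these 2 counts. The 7 never called in wild type were Cyp1b1, Cyp2c55, Cyp2c69, Cyp2j9, Cyp2s1, Cyp4a12a and Cyp4f39.

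**Figure D2:**
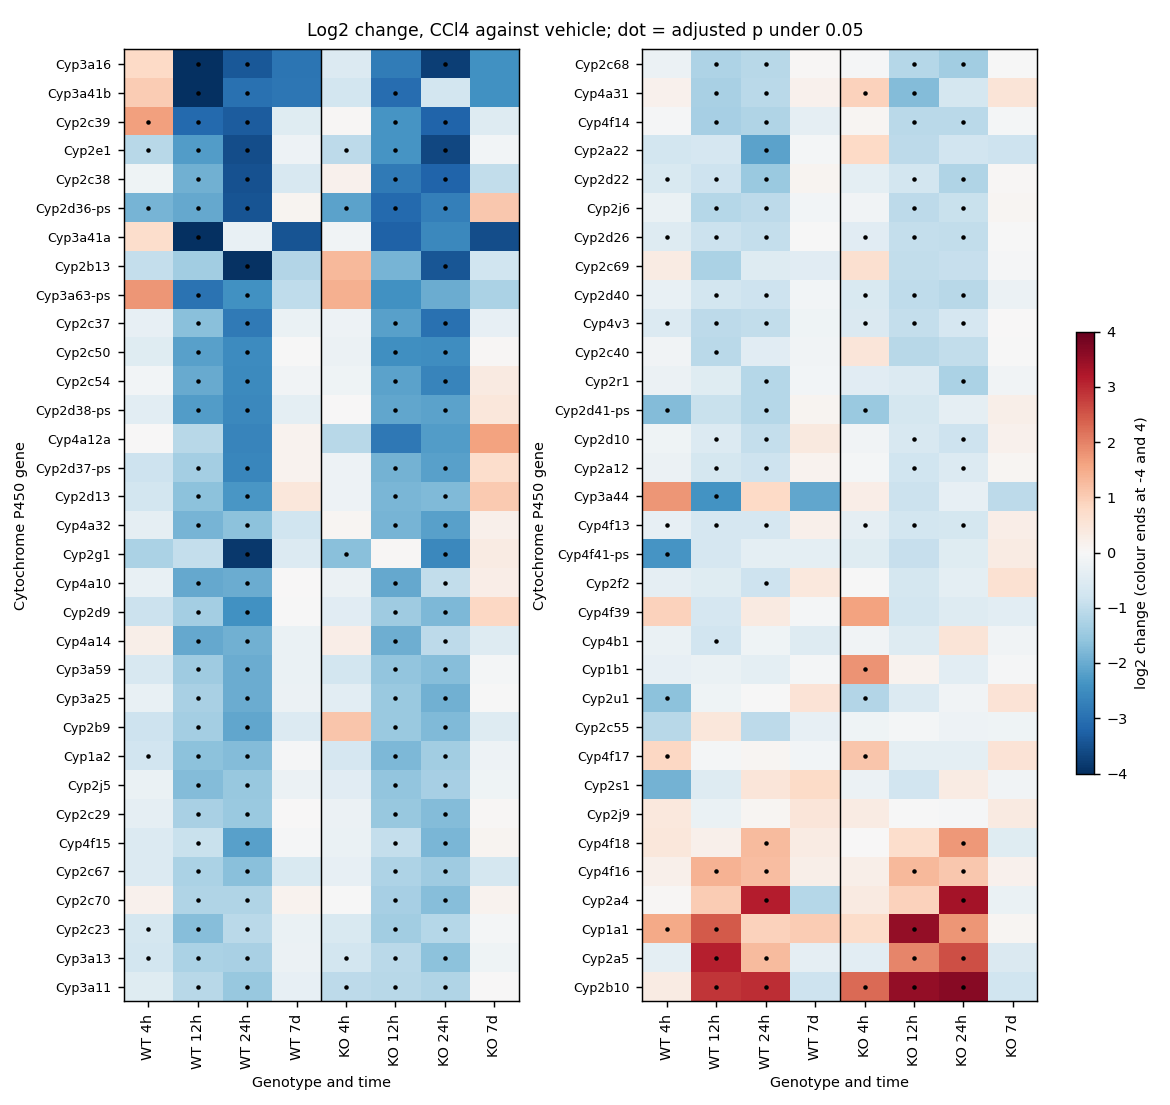
Log2 change of each of the 66 genes (rows, in 2 columns of panels) after CCl4 against vehicle, by genotype and time (horizontal axis); blue is lower, red higher, and a dot marks an adjusted p under 0.05. The 12 h and 24 h columns are mostly blue, with Cyp2b10, Cyp2a5, Cyp1a1, Cyp2a4 and Cyp4f16 red at the end, and the 7 d columns hold no dot.

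Cyp2e1, which activates CCl4, fell at each of the first 3 times and had the smallest adjusted p among the members at 24 h in wild type. In wild-type vehicle livers at 24 h it was at 351416.5, 267161.9, 229466.8, 290333.1 and 267946.7 normalized counts. After CCl4 it was at 27249.6, 44574.3, 17025.8, 10659.8 and 33902.9. The highest treated liver was well under the lowest control. The change was -1.11 ± 0.24 at 4 h (adjusted p 8.4e-05), -2.25 ± 0.24 at 12 h (1.54e-12) and -3.55 ± 0.24 at 24 h (2.39e-19). In knockout livers at 24 h, vehicle values were 245988.3, 308903.9, 348444.3, 282686.8 and 352424.5, and CCl4 values were 15311.1, 31343.8, 29555.4, 22805.4 and 28236.5. Again no liver overlapped, and the change was -3.63 ± 0.24 (adjusted p 9.06e-20). At 7 days the change was -0.21 in wild type (adjusted p 0.696) and -0.1 in knockout.

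Of the 8 pericentral members listed, 7 were lower and 1, Cyp2a5, was higher at 12 h and at 24 h in both genotypes. Over all genes, 23% to 29.4% were lower and 21.1% to 29% higher in these 4 comparisons. The median change of the 8 members in wild type was -1.65 at 12 h and -2.12 at 24 h. Cyp1a2, which oxidizes aromatic amines and caffeine, was at 14395.5, 9039.1, 9215.5, 8481.7 and 6576.0 in wild-type vehicle livers at 24 h and at 2298.7, 5221.9, 2607.7, 1264.5 and 4342.8 after CCl4. All 5 treated livers were under all 5 controls. Its change was -1.63 at 12 h (adjusted p 2.46e-05) and -1.72 at 24 h (1.32e-05) in wild type, and -1.79 (5.14e-05) and -1.4 (0.000389) in knockout. Cyp2f2, a periportal member known for oxidizing naphthalene, was called once, at 24 h in wild type, at -0.82 ± 0.29 (adjusted p 0.0137). That call was lost after quantile normalization (-0.41, 0.234), without the mice numbered below 7000 described with Cyp2a4 (-0.59, 0.433), with only the groups compared (0.0558) and without CCl4 replicate 1 (-0.67, 0.0615).

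**Figure D3:**
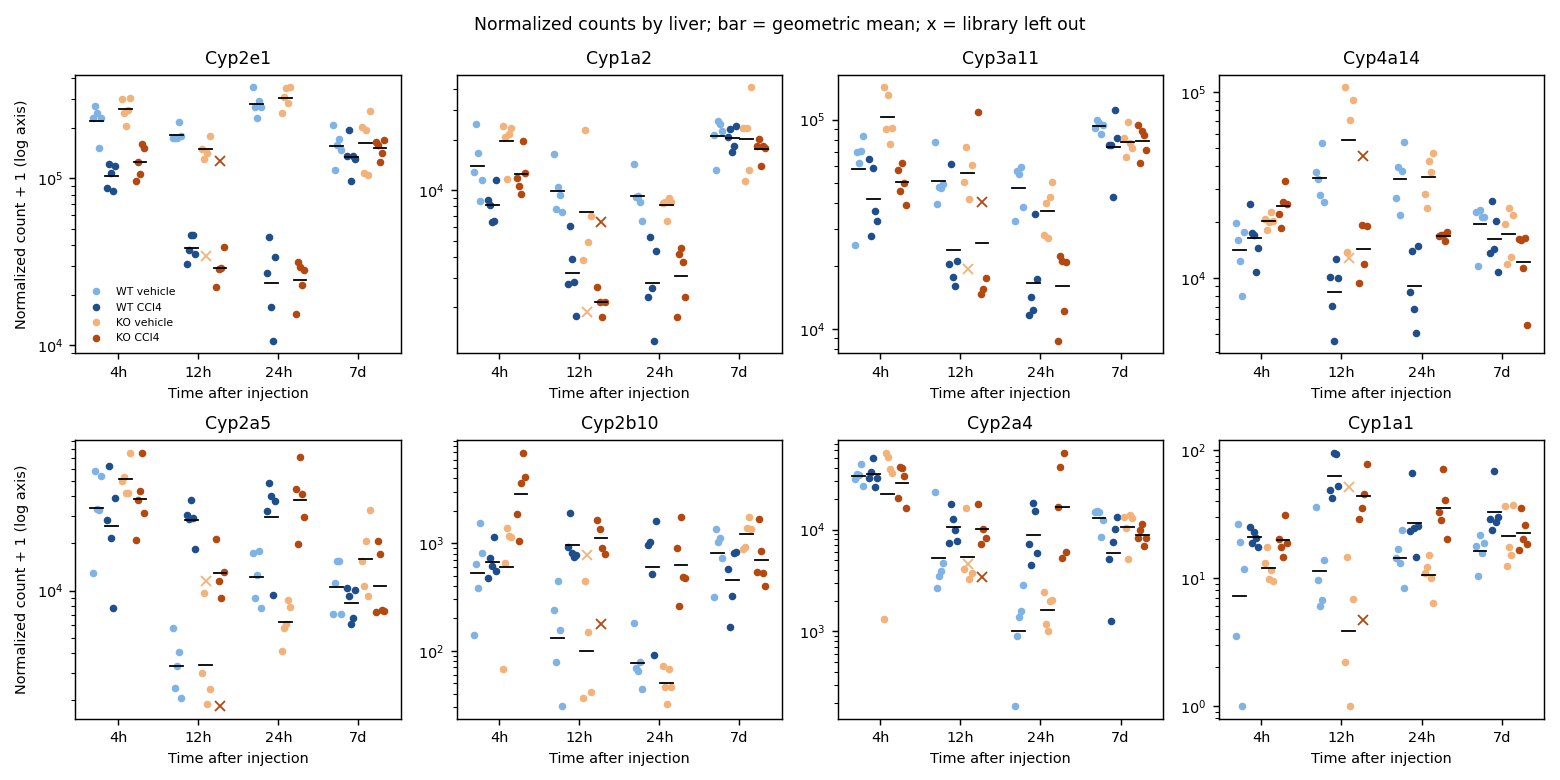
Normalized counts + 1 (log axis) of 8 members by time after injection; each point is 1 liver, bars are geometric means, and crosses are the 2 libraries left out. Cyp2e1, Cyp1a2, Cyp3a11 and Cyp4a14 are lower after CCl4 at 12 h and 24 h, and Cyp2a5 and Cyp2b10 are higher.

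A small set of inducible genes moved the other way. Cyp2a5, the coumarin hydroxylase, was at 5775.4, 2384.7, 3297.7, 4035.9 and 2062.7 in wild-type vehicle livers at 12 h and at 30351.4, 28718.4, 37625.2, 28927.6 and 18301.2 after CCl4. Every treated liver was far above every control. The change was 3.1 ± 0.43 at 12 h (adjusted p 5.89e-09) and 1.26 at 24 h (0.0107). In knockout livers it was 1.96 ± 0.48 at 12 h (0.000515) and 2.58 at 24 h (1.27e-06). With all 80 libraries the knockout value at 12 h was 1.03 (adjusted p 0.123).

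Cyp2b10, the usual readout of CAR, rose in both genotypes. At 24 h it was at 178.3, 68.8, 63.1, 78.3 and 43.2 in wild-type vehicle livers and at 964.9, 1034.6, 517.3, 90.6 and 1602.3 after CCl4. CCl4 replicate 4 lay within the controls and the other 4 lay above them. The change was 2.86 ± 0.66 at 12 h (adjusted p 0.000181) and 2.95 at 24 h (0.000159), and 3.51 ± 0.74 (7.43e-05) and 3.63 (8.51e-06) in knockout. At 4 h it was called in knockout, at 2.25 (0.0047), and without knockout vehicle 4 h replicate 1 it was 1.46 (0.0698). Of the 6 listed members that CAR or PXR drives, 2 were higher and 3 lower at 12 h and 24 h in both genotypes. Over all genes, 21.1% to 29% were higher and 23% to 29.4% lower there.

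Cyp2a4, a steroid 15α-hydroxylase and near copy of Cyp2a5, was at 184.9, 901.3, 1385.9, 1581.7 and 2832.1 in wild-type vehicle livers at 24 h and at 7257.1, 4494.2, 18427.6, 15100.1 and 5929.9 after CCl4. No liver overlapped. The change was 3.13 ± 0.64 (adjusted p 3.38e-05), and 3.34 in knockout (1.74e-05). Of the wild-type vehicle livers at 24 h, replicates 1 to 4 came from mice with numbers below 7000, and no CCl4 liver at 24 h did. Without those mice the value was 1.64 (adjusted p 0.28), with 1 vehicle liver left. At that setting 27 members were called at 24 h in wild type in place of 51, and Cyp2e1 was at -3.5 and Cyp2b10 at 3.76. No longer called were Cyp2a5 (1.92, adjusted p 0.0778), Cyp1a2 (-1.23, 0.133), Cyp3a11 (-1.2, 0.14), Cyp2c29 (-0.96, 0.184), Cyp2f2 (-0.59, 0.433), Cyp2b9 (-1.52, 0.314) and Cyp2d9 (-2.41, 0.0568). The same held for Cyp2r1 (-1.02, 0.0806), Cyp4f16 (0.66, 0.219), Cyp4f18 (1.09, 0.302), Cyp4f13 (-0.39, 0.167) and Cyp4v3 (-0.67, 0.0781), among other members. No knockout mouse had such a number, so the knockout values at 24 h are free of this split. In wild type at 12 h, CCl4 replicates 1 and 2 had such numbers and no vehicle liver did. At 7 days, CCl4 replicates 1 to 4 and vehicle replicates 1 and 2 had them.

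Cyp1a1 stayed low in number but rose. This AHR target was at 34.6, 8.7, 5.0, 5.7 and 12.7 in wild-type vehicle livers at 12 h and at 48.1, 41.3, 94.6, 91.7 and 51.4 after CCl4. The groups did not overlap. The change was 2.46 at 12 h (adjusted p 4.54e-05), and 3.51 ± 0.58 in knockout (8.99e-07). At 4 h the wild-type call (1.51 ± 0.52, adjusted p 0.014) was lost without vehicle replicate 4, at 0.79 (0.195). Thus at 12 h in wild type the 3 listed AHR targets held 1 higher (Cyp1a1), 1 lower (Cyp1a2) and 1 not called. Cyp1b1, which oxidizes oestradiol, was called once, at 4 h in knockout, at 1.8 ± 0.72 (0.0403), and was at 1.39 (0.152) without knockout vehicle 4 h replicate 1. It was also lost without CCl4 replicate 2, 3 or 4 (0.0552 to 0.139).

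The arrays of families 2 and 3 fell broadly at 12 h. In wild type, 9 of 9 Cyp3a, 11 of 13 Cyp2c and 9 of 10 Cyp2d members were lower at 12 h. At 24 h the counts were 7 of 9, 10 of 13 and 10 of 10. In knockout they were 5, 10 and 9 at both 12 h and 24 h. Over all genes, 29.4% and 25% were lower in wild type at 12 h and 24 h, and 23.1% and 23% in knockout. Cyp2c38 was at 3817.0, 3529.0, 3214.8, 1966.9 and 2457.8 in wild-type vehicle livers at 24 h and at 249.3, 589.5, 183.1, 87.9 and 488.7 after CCl4, with no overlap. Its change was -3.49 ± 0.3 (adjusted p 1.22e-14) and -3.2 in knockout. Cyp2c37, an arachidonic acid hydroxylase, changed by -2.84 ± 0.3 (3.89e-12) and -2.98. Cyp2c50 and Cyp2c54 were at -2.51 and -2.55 in wild type and -2.49 and -2.65 in knockout at 24 h. Cyp2c29, which is abundant and pericentral, was at -1.5 (2.12e-05) and -1.74 (2.07e-06). Cyp2j5, an arachidonic acid epoxygenase, changed by -1.73 ± 0.23 at 12 h in wild type (1.52e-09) and -1.59 ± 0.25 in knockout (4.05e-07). Cyp2d26, the second most abundant member per kilobase, was lower at 4 h (-0.53 ± 0.13, 0.000466), 12 h and 24 h (-0.95 ± 0.13, 7.36e-09) in wild type. After quantile normalization the 24 h change was -0.23 (0.1). Cyp2r1, a vitamin D 25-hydroxylase, was called at 24 h only, at -1.13 ± 0.23 (2.82e-05) in wild type and -1.26 ± 0.23 (5.69e-06) in knockout.

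Cyp3a11, the main drug-oxidizing Cyp3a of mouse liver, was at 32619.0, 56823.0, 55229.9, 59661.4 and 38042.7 in wild-type vehicle livers at 24 h and at 11635.3, 14140.1, 12324.5, 35304.9 and 17256.6 after CCl4. CCl4 replicate 4 lay above the lowest control and the other 4 lay below all controls. The change was -1.1 ± 0.34 at 12 h (adjusted p 0.00459) and -1.51 at 24 h (0.000166), and -1.11 ± 0.38 (0.0135) and -1.2 (0.00321) in knockout. After quantile normalization it was -0.48 (0.222) at 12 h in wild type, and -0.45 (0.344) at 12 h and -0.53 (0.201) at 24 h in knockout. The knockout call at 12 h was also lost with all 80 libraries (-0.67, 0.183), with only the groups compared (0.157), and without CCl4 replicate 2, 3 or 4 or vehicle replicate 3 (0.0522 to 0.0899). The female-specific Cyp3a genes showed larger and more scattered changes. Cyp3a16 was at 1491.4, 3890.5, 1067.0, 1937.8 and 2072.8 in wild-type vehicle livers at 12 h and at 38.0, 16.6, 37.4, 36.8 and 9.9 after CCl4. All treated livers were far under all controls, and the change was -6.22 ± 1.4 (0.000116). In the 4 knockout vehicle livers kept at 12 h it was at only 338.2, 229.5, 14.7 and 19.0, and at 9.0, 5.4, 7.7 and 17.1 after CCl4. There the change was -2.81 (adjusted p 0.134). Cyp3a41a changed by -4.81 ± 1.54 at 12 h in wild type (0.00583) and by -3.22 ± 1.72 in knockout (0.118). Cyp3a41b changed by -5.99 ± 1.05 (1.61e-06) and -3.04 ± 1.17 (0.0282). The knockout value was -1.29 (0.439) with all 80 libraries and -1.28 (0.158) with a pseudocount of 8, and its call was lost without CCl4 replicate 4 or vehicle replicate 2 or 3 (0.0595 to 0.0739). Of the 9 members carrying CAAAGTCCA, 8 were lower at 12 h in wild type, against 25 of the 40 without it. At 24 h in wild type the counts were 6 of 9 and 27 of 40, and in knockout 5 of 9 and 23 of 40 at 12 h and 5 of 9 and 25 of 40 at 24 h. The share with the motif was thus above the share without it at 12 h in wild type. In the other 3 comparisons it was close to or below that share, and no difference was tested. Cyp3a16, Cyp3a41a and Cyp3a41b, among the 9, were shown because they fell at 12 h in wild type. That count was thus partly set by the choice, and Cyp3a41a and Cyp3a41b are near copies. All genes were lower in 29.4% and 25% of cases in wild type at 12 h and 24 h, and in 23.1% and 23% in knockout.

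Some sex-biased members were lower, and the number called varied with genotype and time. Of 9 female-biased members listed, 6 were lower at 12 h and 4 lower and 1 higher (Cyp2a4) at 24 h in wild type, with medians of -1.39 and -0.51. Over all genes, 29.4% were lower at 12 h, and 25% lower and 26.2% higher at 24 h. In knockout 2 of 9 (22.2%) were lower at 12 h, near the 23.1% of all genes. At 24 h in knockout, 3 were lower and 1 higher, against 23% and 21.1% of all genes. Calls within each genotype do not test a difference between them. Tested directly, the CCl4 effect differed by genotype in 0 of the 9 at 12 h and at 24 h, and in 0% of all genes. The knockout groups at 12 h held 4 livers each. Cyp2b13 was at 1633.3, 4889.7, 4340.5, 6794.7 and 4032.5 in wild-type vehicle livers at 24 h and at 211.3, 258.1, 143.7, 343.2 and 396.8 after CCl4. The groups were apart, and the change was -3.95 ± 0.8 (adjusted p 3.26e-05) and -3.42 in knockout (0.000354). Cyp2b9 was at -2.07 (0.00195) and -1.77 (0.00947), the latter -1.41 (0.0578) without knockout CCl4 replicate 5. Cyp2d9 was at -2.41 (0.00011) and -1.79 (0.00447). Cyp2g1 was at -3.86 ± 0.62 (5.07e-07) and -2.58 (0.000541).

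In family 4, 4 of 5 Cyp4a fatty acid ω-hydroxylases were lower at 12 h in both genotypes, and Cyp4a12a was never called. Cyp4a31 was higher at 4 h in knockout, at 0.92 ± 0.33 (adjusted p 0.0219), before it was lower at 12 h (-1.72 ± 0.37, 0.000105). The 4 h call was lost after quantile normalization (0.73, 0.0763) and without CCl4 replicate 4 (0.75, 0.0847) or vehicle replicate 5 (0.82, 0.063). All 4 PPARα-driven members listed were lower at 12 h and 24 h in wild type and at 12 h in knockout, and 3 at 24 h in knockout. Their median in wild type was -1.95 at 12 h and -1.79 at 24 h. Over all genes, 23% to 29.4% were lower at these times in the 2 genotypes. Cyp4a14 was at 37355.6, 33930.8, 28140.5, 53517.1 and 25674.5 in wild-type vehicle livers at 12 h and at 10090.5, 7050.1, 4593.6, 12648.0 and 9998.9 after CCl4. The groups did not overlap, and the change was -2.04 ± 0.34 (adjusted p 4.4e-07). At 24 h it was -1.92 (2.33e-06), against -1.05 (0.0087) in knockout. After quantile normalization the knockout change at 24 h was -0.34 (0.431), and that of Cyp4a10 was -0.49 (0.218). Cyp4v3, Cyp4f13 and Cyp3a13 were lower at 4 h, 12 h and 24 h in both genotypes, by smaller amounts, from -0.32 to -1.04 for the first pair in wild type. The 4 h call of Cyp4f13 was lost with all 80 libraries in both genotypes (adjusted p 0.0777 and 0.0602). It was also lost without wild-type CCl4 replicate 1 or 4 or vehicle replicate 1 (0.0501 to 0.101), and without knockout CCl4 replicate 3 (0.0763) or vehicle replicate 1 (-0.26, 0.0962). At 12 h in knockout, all 80 libraries gave -0.38 (0.062) for Cyp4f13 and -0.49 (0.231) for Cyp3a13. Cyp4f15 was at -2.16 ± 0.29 at 24 h in wild type (9.16e-09).

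A few Cyp4f members rose. Cyp4f16 was at 127.3, 133.7, 154.1, 141.1 and 114.5 in wild-type vehicle livers at 12 h and at 386.2, 226.0, 460.8, 403.6 and 316.3 after CCl4. Its change was 1.38 ± 0.22 (adjusted p 3.07e-07), and 1.31 ± 0.25 in knockout (1.39e-05). Cyp4f17 was higher at 4 h, by 0.84 ± 0.19 (0.000151) and 1.11 (1.43e-06). Cyp4f18, a leukotriene B4 hydroxylase of myeloid cells, was at 17.7, 32.7, 18.5, 24.8 and 26.1 in wild-type vehicle livers at 24 h and at 58.1, 36.7, 59.6, 131.8 and 35.0 after CCl4. Each treated liver was above each control, and the change was 1.25 ± 0.4 (0.00709), or 1.09 (0.302) without the mice numbered below 7000. In knockout it was 1.74 (0.000277). In the same wild-type livers the 6 measured neutrophil markers summed to 372.1 to 2970.8 in vehicle and 1664.1 to 3922 after CCl4. The monocyte and macrophage markers summed to 7430.1 to 13769.6 and 11839.5 to 26493.1. Their part in the Cyp4f18 change was not tested. Cyp2u1, a long-chain fatty acid hydroxylase, was lower at 4 h, by -1.65 ± 0.44 in wild type (0.00131) and by -1.16 in knockout (0.0282), or -0.74 (0.195) without knockout vehicle 4 h replicate 1. The knockout call was also lost without vehicle replicate 3 or CCl4 replicate 3 or 5 (0.0593 to 0.135).

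The genes that supply and control these enzymes were read from lists. Over all genes at 12 h, 29.4% were lower and 29% higher in wild type, and 23.1% and 23.6% in knockout. Of 17 genes for electron donors and haem, 12 were lower and 2 higher at 12 h in wild type, and 11 and 1 in knockout. Por, the reductase, was higher at 12 h (0.74 ± 0.23, adjusted p 0.00449) and lower at 24 h (-0.98, 0.000275). Alas1, which limits haem synthesis, was at -1.04 ± 0.32 at 4 h in wild type (0.00527), and was not called in knockout (-0.57). The knockout change minus the wild-type change was 0.47 ± 0.45 for Alas1 and was not called. Hmox1, which breaks haem down, was higher by 3.3 ± 0.31 at 4 h (3.26e-14). Of 17 regulators, 12 were lower and 2 higher at 12 h in wild type, and 13 and 2 in knockout. Nr1i3 (CAR) was at -2.54 at 24 h (2.85e-10) and Nr1i2 (PXR) at -1.53 ± 0.21 (7.76e-09). Ahr was at -1.69 ± 0.21 at 12 h (3.75e-10), and Tiparp, an AHR target, at 2.4 ± 0.28 at 4 h (9.93e-11). Hnf4a was at -1.35 ± 0.15 at 12 h (4.35e-12). Of 12 P450 genes of other families, 7 were lower and 1 higher at 12 h in wild type.

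Both genotypes were then set side by side. Members called in both genotypes numbered 8 lower and 1 higher at 4 h, 38 and 4 at 12 h, and 40 and 5 at 24 h, and no member was called in opposite directions. The matching shares of all genes were not taken, so these counts cannot be read as particular to the members. The difference of the CCl4 effect between genotypes was tested directly, and limma called 0 of 66 members at any time. At an unadjusted p under 0.05 there were 4 at 4 h, 1 at 12 h, 2 at 24 h and 2 at 7 days. The share of all genes called at an adjusted p under 0.05 was 0.00687% at 4 h and 7 days and 0% at 12 h and 24 h. No such share was taken at the unadjusted threshold. For Cyp2e1 the knockout change minus the wild-type change was 0.06 ± 0.33 at 4 h, -0.11 ± 0.35 at 12 h and -0.07 ± 0.33 at 24 h. For Cyp2a5 it was -1.14 ± 0.64 at 12 h and 1.31 ± 0.6 at 24 h, and for Cyp2b10 1.93 ± 0.94 at 4 h. These errors leave room for differences that the test did not call. The Cyp2b10 value includes knockout vehicle 4 h replicate 1, the library with little Xist, at 66.2 against 657.8 to 1391.6 in the other 4. Cyp1b1 and Cyp2b9, also among the 4 at 4 h, were likewise lowest of their group in that library.

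**Figure D4:**
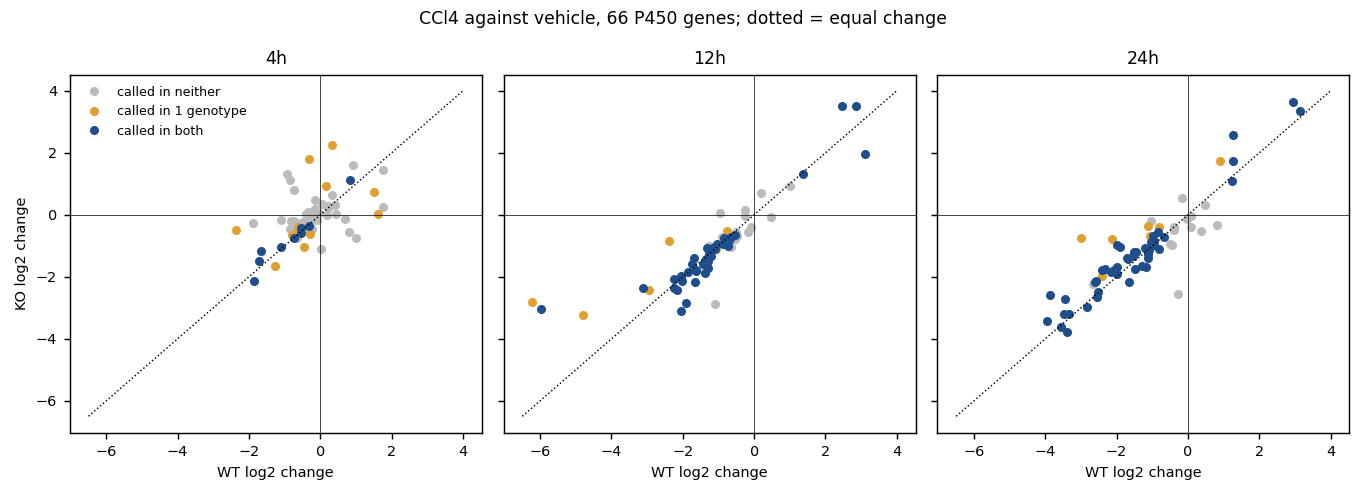
Log2 change after CCl4 in wild type (horizontal axis) and knockout (vertical axis) for the 66 genes at 4 h, 12 h and 24 h; colours give the number of genotypes in which a gene was called, and the dotted line is equal change. Most called genes lie near the line at 12 h and 24 h.

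Among CCl4 livers alone, knockout against wild type called 2 members at 4 h, where 0.584% of all genes were called. Cyp2d9 was at 1107.9, 348.0, 889.5, 581.5 and 829.7 in wild-type CCl4 livers and at 5005.6, 3478.2, 1868.5, 4954.2 and 4004.7 in knockout CCl4 livers, with no overlap. The difference was 2.38 ± 0.53 (adjusted p 0.0125). Among vehicle livers at 4 h it was at 832.3 to 1782.7 in wild type and, leaving aside the library with little Xist, 1617.7 to 4781.0 in knockout. Cyp2c39, a retinoic acid hydroxylase that was singled out after its values were seen, was at 11226.1, 422.2, 162.8, 7490.5 and 6798.7 in wild-type CCl4 livers at 4 h and at 203.7 to 405.5 in knockout ones. In wild type 3 livers were high, and the other 2 lay just above and just below the knockout range. One vehicle liver of wild type was also high, at 12703.0, while the other 4 were at 232.1 to 424.2. The difference of -2.79 ± 0.67 (0.0256) lost its call in 7 of the 10 fits that each left out 1 library, with all 80 libraries (0.0597) and with only the groups compared (0.212). Likewise the CCl4 effect on Cyp2c39 at 4 h in wild type was 1.63 ± 0.67 (0.0427) and fell to 1.02 (0.239) without CCl4 replicate 1. At 12 h, 24 h and 7 days limma called 0 members (5, 8 and 2 at an unadjusted p under 0.05), where 0.0206%, 0.0137% and 0% of all genes were called. Over all vehicle livers 0 were called (5 unadjusted), where 0.282% of all genes were. The largest difference in vehicle livers was Cyp3a16 at -2.49 ± 0.71 (adjusted p 0.143). All these shares are of adjusted calls, and none was taken for the unadjusted counts.

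Vehicle livers differed between collection times, which bears on every level above. Limma called 21 of 66 members in wild type (31.8%, against 38.9% of all genes) and 29 in knockout (43.9%, against 41.7%). The members' shares were thus below or close to those of all genes. In wild-type vehicle livers Cyp2a4 averaged 34353.7 ± 6329.1 at 4 h, 7591.9 ± 8716.9 at 12 h, 1377.2 ± 975.5 at 24 h and 13219.7 ± 2881 at 7 days (SD, n = 5 each; adjusted p 4.23e-08). Cyp2a5 averaged 38224.3 ± 18315.6, 3511.3 ± 1484.5, 12924.5 ± 4642.4 and 11242.4 ± 4136.2 (1.47e-07). Cyp2b10 averaged 701.8 ± 531 at 4 h, 86.3 ± 53 at 24 h and 908.6 ± 405.1 at 7 days (5.23e-05). Thus the rise of Cyp2a4 at 24 h and of Cyp2a5 at 12 h was against controls at their lowest, and both treated groups stayed below the vehicle means at 4 h. Cyp2f2 averaged 28754.6 ± 4063.6, 19753.5 ± 6590.8, 11157.2 ± 1172.6 and 30933 ± 3435.4 (9.48e-05). Cyp4a14 ran the other way, with 14754.2 at 4 h, 35723.7 at 12 h, 35959.7 at 24 h and 20029.4 at 7 days (0.00187). In knockout, Cyp2f2 averaged 10906.2 ± 1650.5 at 24 h and 34072.1 ± 2789.3 at 7 days. Hours since the injection, clock time and feeding cannot be told apart in this design. The mouse numbers also differed between these times in wild type. Vehicle replicates 1 to 4 at 24 h and 1 and 2 at 7 days were numbered below 7000, and none at 4 h or 12 h was.

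**Figure D5:**
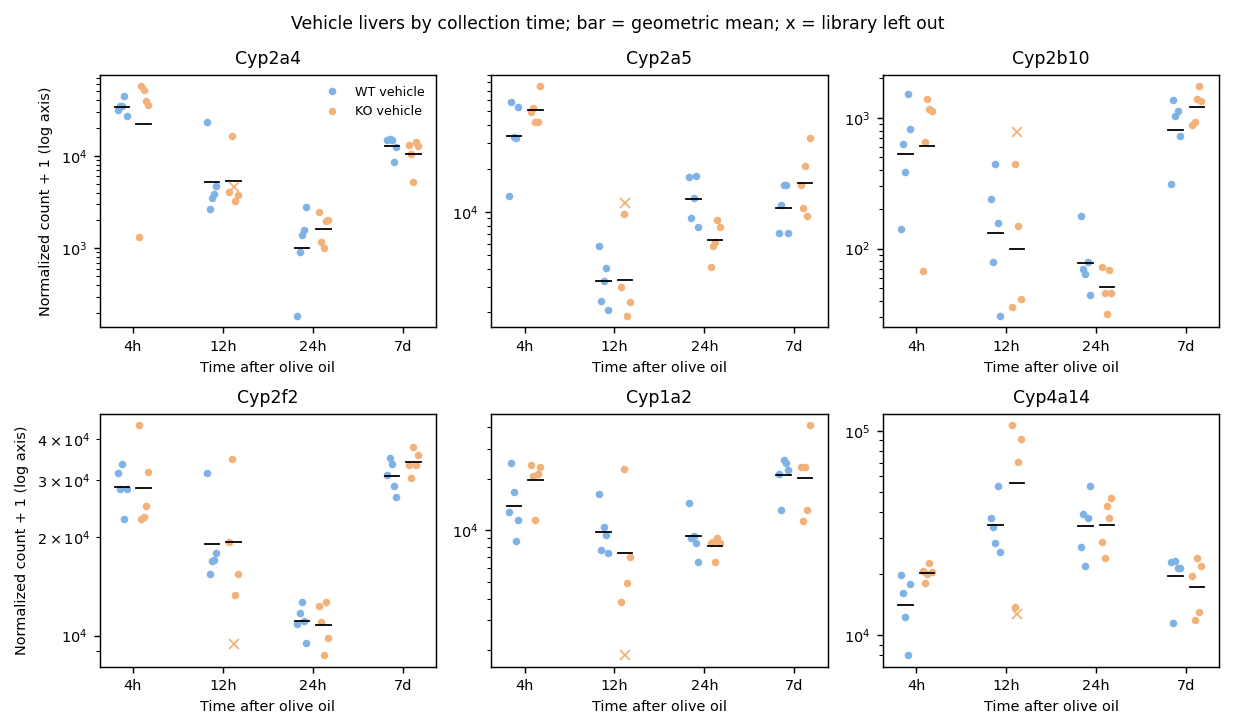
Normalized counts + 1 (log axis) of 6 members in vehicle livers by time after olive oil; each point is 1 liver, bars are geometric means, and the cross is the library left out. Cyp2a4, Cyp2b10 and Cyp2f2 are lowest at 24 h, Cyp2a5 is lowest at 12 h, and Cyp4a14 is highest at 12 h and 24 h.

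By 7 days limma called no member in either genotype, where 0.0275% of all genes were called lower and 0.0275% higher in wild type, and 0.385% and 0.309% in knockout. At an unadjusted p under 0.05 there were 8 members in each genotype, and no share of all genes was taken at that threshold. The smallest adjusted p was 0.134 in wild type and 0.0948 in knockout, the latter for Cyp2c38 at -0.99 ± 0.3. The median change over the members was -0.14 in wild type and -0.02 in knockout.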

How the data were processed

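RNA-seq of 80 mouse livers (500 ng of total RNA each, stranded poly(A) libraries, per the labels' protocols) was used as deposited. For the authors' own processing, the submitters' processing notes name STAR, HTSeq, DESeq2 and GRCm38. Versions, the annotation release, the strand setting and the handling of reads with several matches are not given in the sources used here. The authors deposited normalized counts, here treated as a signal that is never negative: each library's values were whole multiples of 1 step, within 0.01 reads. They are not raw counts, so no count model was run.

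The main test was limma 3.58.1 (R 4.3.3) on log2(value + 1), with the 16 group means as terms, 78 libraries, a mean-variance trend, two-sided tests and Benjamini-Hochberg adjustment over 14558 genes per contrast. A gene entered the fit if 5 or more libraries held 10 or more normalized counts of it. The code was tested on simulated data. Fold changes on this scale understate changes of low genes. The members, the lists and the rules were chosen with earlier results of these data known. Named were members listed by hand, plus, per contrast, the 5 largest falls and 5 largest rises among called members with a mean of at least 100 and no overlap, and per list up to 4 called genes. Promoters and windows came from RefSeq and GENCODE M21 (Python 3.11.15, Biopython 1.88). Alternatives covered the pseudocount, the filters, scaling, the libraries kept, a replicate block and the samples that share the spread.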

Additional observations from a re-analysis of the deposited data

Results flagged for a closer look

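Within each group of 4 or 5 livers, the highest or lowest value was compared with its nearest neighbour for 12 members and for the members' share of counts. Genes were taken on the log2 scale and the share in percent. In 26 of 208 groups (12.5%) a liver had a gap that passed Dixon's 95% value, where chance gives about 1 in 20. The 208 reuse the same livers, so they are not independent. All values are normalized counts unless a percent is given.

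In wild-type vehicle livers, Cyp2e1 was high in replicate 4 at 12 h (217379.3, others 173570.0 to 179042.1) and Cyp1a2 low in replicate 2 at 7 days (13123.8). Cyp1b1 was high in replicate 5 at 24 h (77.5), Cyp2f2 high in replicate 1 at 12 h (31434.1) and Cyp3a11 low in replicate 1 at 4 h (25265.4). Cyp3a41a was at 0.0 in replicate 1 at 24 h, Cyp4a14 low in replicate 2 at 7 days (11520.1), and the share high in replicate 1 at 12 h (2.32%).

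In wild-type CCl4 livers at 12 h, replicate 2 was high in Cyp2b10 (1910.3), in Cyp3a11 (61391.9) and in the share (1.49%), and replicate 1 was high in Cyp1b1 (44.3). At 24 h, replicate 4 was low in Cyp2a5 (9302.0) and high in Cyp2f2 (17163.6). At 7 days, Cyp1a1 was high in replicate 3 (67.0) and Cyp2f2 low in replicate 5 (34723.0).

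In knockout vehicle livers, replicate 1 at 4 h, the library with little Xist, was low in Cyp1b1 (2.0), Cyp2b10 (66.2) and Cyp3a41a (44.1). Cyp1a2 was low in replicate 3 at 4 h (11574.6) and in replicate 3 at 24 h (6572.0), and Cyp2c29 was high in replicate 3 at 12 h (50884.9).

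In knockout CCl4 livers, Cyp2f2 was low in replicate 1 at 4 h (26143.1). Replicate 1 at 12 h was high in Cyp2f2 (28792.3) and in Cyp3a11 (108444.5), and Cyp3a41a was low in replicate 5 at 24 h (0.8).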

How the results depend on the processing

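Of 406 gene results, 219 were called. Using all 80 libraries ended 27 calls, leaving out wild-type mice numbered below 7000 ended 27, quantile normalization 18, fitting only the groups compared 16 (16 gained), and a pseudocount of 8 or TMM factors 3 each. No filter ended none. The 1 reversed result was Cyp2d40 at 24 h in wild type, -0.82 against 0.04 (adjusted p 0.963) without the mice numbered below 7000. Counts of called members moved by over 1.5 times as follows. Fitting only the groups compared gave 23 in place of 15 for wild type at 4 h, 10 in place of 2 for knockout against wild type among CCl4 livers at 4 h, and 35 in place of 21 for wild-type vehicle livers between times. Leaving out the mice numbered below 7000 gave 27 in place of 51 for wild type at 24 h and 2 in place of 0 for the genotypes in vehicle. All 80 libraries gave 22 in place of 42 for knockout at 12 h and 1 in place of 2 for the genotypes among CCl4 livers at 4 h. A pseudocount of 8 gave 4 in place of 2 there, and 2 in place of 0 in vehicle. Leaving out 1 library at a time gave 0 to 1 at 7 days in each genotype, 1 to 2 for the genotypes among CCl4 livers at 4 h, 0 to 1 at 24 h, and 0 to 2 in vehicle. In an alternative chosen after seeing the data, leaving out knockout vehicle 4 h replicate 1, wild-type vehicle 12 h replicate 1 and knockout vehicle 12 h replicate 3 as well, counts were 16, 48 and 52 in wild type and 11, 40 and 46 in knockout at 4 h, 12 h and 24 h. The planned edgeR test was not run.

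With the replicate number as a block, 14, 48, 51 and 0 members were called in wild type and 16, 42, 46 and 0 in knockout at 4 h, 12 h, 24 h and 7 days, and 2 gene calls were lost and 1 gained. Livers with the same number did not deviate together on average (mean correlation 0 over 570 pairs, against 0.001 over 2281 pairs with other numbers). Correlations over 0.1 made up 21.8% and 19.8% of these pairs. No pairing by number was seen, but a mean correlation cannot show that there was none. The cause of these changes was not tested.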
